A study of Homo sapiens with 6 samples.

Results

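The NF-kB and TNF superfamily gene set holds 46 genes, all found by symbol among the 57819 genes of the deposited table. They are grouped here by role: 5 Rel-family subunits, 4 IkB proteins, 8 kinases and partners that act upstream, and 9 TRAF, IRAK and RIPK signalling proteins. Another 4 are ubiquitin-editing inhibitors or their partners, 5 are TNF receptors and 2 are TNF ligands. The last 9 are other genes that the pathway switches on or that TNF induces. RNA was measured in 6 libraries of IMR90 ER:Ras cells. IMR90 cells are fibroblasts of an established human lung line. In ER:Ras cells the Ras oncoprotein is joined to part of the estrogen receptor, so that 4-hydroxytamoxifen (4OHT) switches Ras on. All 6 libraries, controls included, came from cells given 200 nM 4OHT for 3 days, the state the series title calls senescent. In 3 libraries the cells carried a scrambled control siRNA (siSCR), and in the other 3 an siRNA against sin-lncRNA, a long noncoding RNA. The comparison asks what depletion of this RNA changes in such cells. Cells without 4OHT were not analysed here, only 1 line and 1 targeting siRNA are labelled, and the labels do not say that the libraries of a group came from separate cultures, so the p-values measure the spread between these libraries, which may be technical.

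NF-kB is a family of dimeric transcription factors built from RELA, RELB, REL and the processed products of NFKB1 and NFKB2. IkB proteins hold the dimers in the cytoplasm until the IKK kinase complex, switched on by TNF, interleukin-1 or pattern-recognition receptors through TRAF, IRAK and RIPK proteins, marks them for destruction. Many of the genes then induced, among them NFKBIA and TNFAIP3, encode inhibitors that close the loop. In senescent fibroblasts NF-kB is known as a main driver of the inflammatory secretome, the mix of cytokines, chemokines and proteases that such cells release.

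The libraries held between 22117324 and 50913672 reads in genes, and each knockdown library was shallower than each control library. RPM values below are recovered reads scaled by the authors' effective library sizes to a common total (the scale of CPM), and 3 reads, the most that a count of 0 allows, correspond to between 0.0596 and 0.134 RPM. The targeted RNA, listed as RP4-530I15.6, fell from 4.17 ± 0.519 RPM to 0.556 ± 0.076 RPM (mean ± SD, n = 3), or 13.3% of control. All 10 fibroblast markers were above 1 RPM in every library, with sums of 15670 to 16890 RPM in controls and 11350 to 11760 RPM in knockdowns, and 5 of the 10 rose while 5 fell. COL1A1 (6617 RPM in controls and 3599 RPM in knockdowns), COL1A2, VIM, PDGFRB and DCN fell, and COL3A1 (1555 and 2015 RPM), PDGFRA, LUM, FAP and THY1 rose. Of 8 immune markers 7 were below 1 RPM in every library, among them PTPRC and CD3E, with sums of 1.03 to 1.60 RPM in controls and 0.896 to 2.46 RPM in knockdowns. Among these immune markers LAPTM5 stood at 0.143 RPM in controls and 0.739 RPM in knockdowns. Of the 5 endothelial markers measured, 3 were below 1 RPM in every library, with sums of 6.99 to 7.93 RPM and 7.87 to 8.71 RPM. Of 8 epithelial markers 7 were below 1 RPM, KRT5 and NKX2-1 were at 0 throughout, and the sums were 4.35 to 5.10 RPM and 3.12 to 3.63 RPM. The part of any other cell type in the values below was not tested, and in bulk RNA fewer cells of a type and less RNA per cell cannot be told apart.

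Knockdown moved individual genes of the set in both directions, and the largest changes were a fall of the receptor gene TNFRSF1B and a rise of the adhesion molecule gene ICAM1. Of the 46 genes 44 passed the filter of a mean of at least 10 reads per library, and 24 of them changed at an adjusted p under 0.05 (limma, Benjamini-Hochberg over all 19188 genes tested), 12 higher and 12 lower. That is 54.5% of the genes tested in the set, beside 40.8% of all genes, and 27.3% higher and 27.3% lower beside 17.4% and 23.4%. All 44 also had a mean of at least 50 reads, and 48.4% of the 15157 such genes were called when fitted alone. The knockdown and control libraries did not overlap for 24 of the 44, or 54.5%, beside 51.0% of all genes. The median log2 fold change, given throughout as knockdown minus control, was 0.05 in the set and -0.04 over all genes, and the median absolute log2 fold change was 0.20 and 0.23. Only 7 genes both changed and reached an absolute log2 fold change of 0.5, 15.9% of the 44 beside 13.9% of all genes: ICAM1, TNFAIP3 and TNFSF4 higher, and TNFRSF1B, TRAF1, TNIP2 and IRAK1 lower. With GC and length trends removed, TNFSF4 at 0.417 and IRAK1 at -0.425 were still called but were under that size. The 2 genes below the filter were CSF2, a growth factor for granulocytes and macrophages, at 0.0448 to 0.392 RPM over the 6 libraries, and PTGES, a prostaglandin E synthase, at 0.167 to 0.448 RPM.

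**Figure D1:**
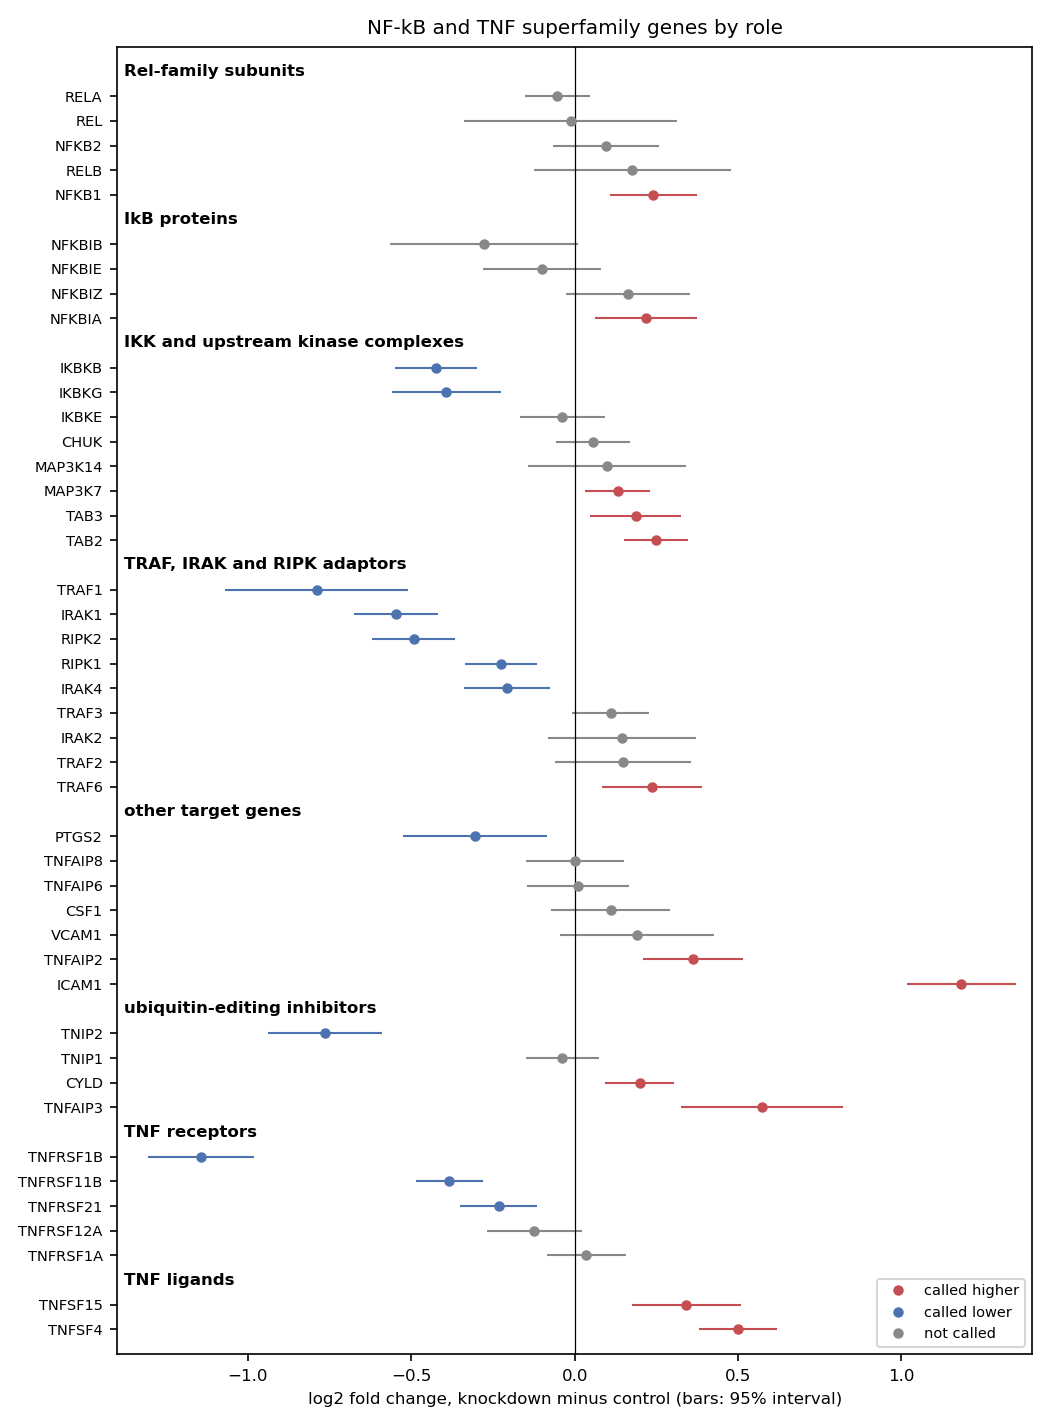
Log2 fold change of each of the 44 tested genes (points; x axis, knockdown minus control) with its 95% interval (bars), ordered by role. ICAM1 lies farthest to the right at 1.18 and TNFRSF1B farthest to the left at -1.14, while the Rel-family subunits lie between -0.05 and 0.24.

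The Rel subunits, which bind DNA, changed little. NFKB1, whose product is cut to the p50 subunit, lies at chr4:103422486-103538459 on the plus strand (hg19, as all gene positions here). It stood at 28.6, 31.3 and 28.1 RPM in control libraries 1 to 3 and at 34.0, 36.0 and 33.9 RPM in knockdown libraries 1 to 3. All knockdown libraries were above all controls, and NFKB1 rose by 0.24 on the log2 scale (SE 0.06, adjusted p = 0.0082), the one called change among the 5 subunits.

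RELA, the p65 subunit with the strong activation domain (chr11:65421067-65430565, minus strand), stood at 74.0, 77.3 and 76.4 RPM in controls and at 71.9, 74.9 and 72.6 RPM in knockdowns. The groups overlapped, and the 95% interval of its log2 fold change ran from -0.15 to 0.05 (adjusted p = 0.38). NFKB2, the precursor of p52 in the noncanonical arm (chr10:104153867-104162281, plus strand), stood at 33.7, 29.4 and 31.8 RPM in controls and at 32.1, 37.1 and 32.1 RPM in knockdowns. The groups overlapped, with a log2 fold change of 0.10 (interval -0.07 to 0.26, adjusted p = 0.33). RELB, the usual partner of p52 (chr19:45504688-45541452, plus strand), stood at 14.5, 9.66 and 12.9 RPM in controls and at 12.1, 14.3 and 15.1 RPM in knockdowns. Control library 2 was low and the groups overlapped, with a log2 fold change of 0.18 (interval -0.13 to 0.48, adjusted p = 0.33). Leaving out 1 library at a time gave RELB log2 fold changes from 0.01, without control library 2, to 0.30, and removing GC and length trends gave 0.37 with a call (adjusted p = 0.0019). REL, the c-Rel subunit best known from lymphocytes (chr2:61108656-61158745, plus strand), stood at 2.47, 2.26 and 2.50 RPM in controls and at 2.56, 2.01 and 2.64 RPM in knockdowns. REL was the scarcest subunit, its libraries overlapped, and the interval from -0.34 to 0.31 left changes of that size undetectable at this depth. REL values are uncertain, since 43.3% of its exon bases are shared on the same strand with another annotated RNA, RP11-373L24.1, which is listed at 0 reads in every library.

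Per exon length, which allows genes to be compared, RELA made up 46.5% ± 2.20 of the summed Rel-family RNA in controls and 43.0% ± 0.943 in knockdowns (SD, n = 3; exact permutation p = 0.1). NFKB1 made up 15.7% ± 1.296 and 17.8% ± 0.378 (exact permutation p = 0.1). These 2 shares did not overlap between groups, and 0.1 is the smallest p that 3 libraries against 3 can give. NFKB2 held 23.6% and 24.1%, RELB 13.6% and 14.6%, and REL 0.613% and 0.587%, with overlapping libraries. The REL share is uncertain as well, since the exon length used for it includes the shared bases.

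**Figure D2:**
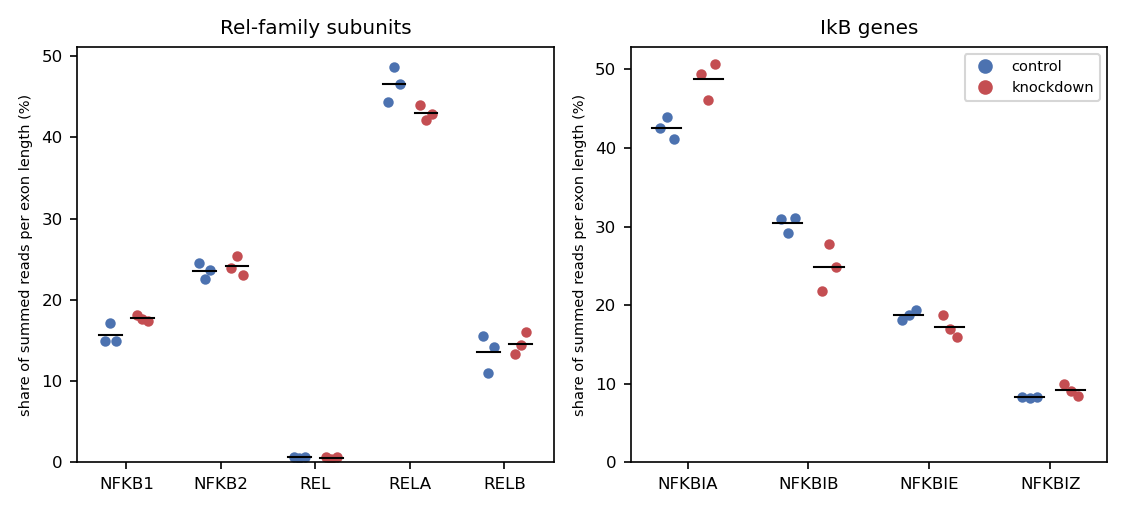
Share of the summed RNA per exon length (y axis, percent) held by each Rel-family subunit (left) and each IkB gene (right) in the control and knockdown libraries (points, with group means as lines). RELA held the largest share of Rel RNA in all 6 libraries, and NFKBIA the largest share of IkB RNA, at 42.5% in controls and 48.8% in knockdowns.

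Among the IkB proteins, which hold Rel dimers inactive, the NFKBIA transcript rose slightly and none other was called. NFKBIA encodes IkB-alpha, an early target of the factor it restrains (chr14:35870717-35873955, minus strand). It stood at 30.5, 26.6 and 27.0 RPM in controls and at 30.3, 33.2 and 34.2 RPM in knockdowns. Control library 1 was level with knockdown library 1, so the groups overlapped although the log2 fold change of 0.22 (SE 0.07) passed the test at an adjusted p of 0.030. That call was lost when control library 2 or 3 or knockdown library 2 or 3 was left out, with adjusted p-values between 0.082 and 0.12. With all libraries kept, it was also lost without an intensity trend in the variance model and with equal replicate numbers fitted as blocks.

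NFKBIB, or IkB-beta, ranged from 17.3 to 21.7 RPM in controls and from 13.1 to 19.6 RPM in knockdowns (log2 fold change -0.28, adjusted p = 0.11). Without control library 2 its adjusted p was 0.037, and without knockdown library 2 it was 0.020. NFKBIE, or IkB-epsilon, had a log2 fold change of -0.10 and NFKBIZ, a nuclear IkB that works with NF-kB at a subset of promoters, of 0.16, neither called. The share of NFKBIA in summed IkB RNA per exon length was 42.5% ± 1.35 in controls and 48.8% ± 2.35 in knockdowns, and that of NFKBIB 30.4% ± 1.05 and 24.8% ± 2.94 (SD, n = 3; exact permutation p = 0.1 for each). The share of NFKBIZ was 8.28% ± 0.083 and 9.15% ± 0.746 (exact permutation p = 0.1). The groups did not overlap for these 3 shares, while those of NFKBIE did, at 18.8% and 17.3%.

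The promoters of several of these genes hold sequence matches to the site of the factor itself. These matches are shown for the genes given in full in which 1 was found. The 250 bases upstream of each annotated start in the RefSeq promoter table (GRCh38.p14) were searched on both strands for the kB consensus, the sequence that Rel dimers bind. A promoter was found for 39 of the 46 genes, and 13 of them, or 33.3%, held the consensus, beside 11.8% of 27305 genes in that table. A gene was counted if any of its promoters held a match. Counted by promoter, 15 of 58, or 25.9%, held the consensus, beside 9.96% of 35116. The lines give bases around matches 5′ to 3′ on the strand of the gene, with the matches in capitals; at REL and at NFKB2 chr10:102394462-102394491, 2 matches overlap within 1 capital run. Runs were kept to the part without an annotated UTR or, where the match lies in one, to 30 bases. NFKB2 has a further match in each of its printed promoters, 78 bases before the start in the first and 176 bases before it in the second, outside the bases shown.
NFKB1, chr4:102501239-102501328, plus strand: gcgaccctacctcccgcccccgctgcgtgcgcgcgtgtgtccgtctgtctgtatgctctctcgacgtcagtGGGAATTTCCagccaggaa
NFKB2, chr10:102394462-102394491, plus strand: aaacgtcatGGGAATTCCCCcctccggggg
NFKB2, chr10:102395674-102395703, plus strand: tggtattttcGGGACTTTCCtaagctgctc
REL, chr2:60881518-60881547, plus strand: gtcagccgcGGGAAATTCCCctcccgccag
NFKBIA, chr14:35404750-35404869, minus strand: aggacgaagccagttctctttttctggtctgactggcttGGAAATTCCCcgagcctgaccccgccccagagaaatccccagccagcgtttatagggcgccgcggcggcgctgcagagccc
TNFAIP3, chr6:137867188-137867217, plus strand: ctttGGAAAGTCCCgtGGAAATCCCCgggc
IRAK1, chrX:154019981-154020022, minus strand: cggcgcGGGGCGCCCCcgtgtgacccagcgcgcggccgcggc

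The matches in NFKB1 and NFKBIA begin 49 and 81 bases before the start, and TNFAIP3 holds a pair on the opposite strand, 67 and 55 bases before it. Of the 13 genes with the consensus 5 were higher (NFKB1, NFKBIA, TNFAIP3, CYLD and TAB2), 1 was lower (IRAK1) and 7 were not called. Of 24 tested genes with a promoter in the table and no match, 7 were higher, 8 lower and 9 not called, among them both extremes of the set, ICAM1 and TNFRSF1B. Over all tested genes with a promoter in the table, 23.0% of the 1729 with the consensus were higher and 26.1% lower. The shares were 21.2% and 25.7% of the 9445 without it. A match is a description of these letters, not evidence of binding, and no match says only that they are not in this window. The search allowed no mismatch, so near matches to the consensus were not counted. The ICAM1 window holds such a near match, tggaaattcc, which differs from the consensus only at its first base. A looser form (3 G, any 5 bases, 2 C) was found in 35 of the 39 genes, or 89.7%, beside 57.8% of genes. ICAM1 and TNFRSF1B were among the 35, although the near match in ICAM1 is not among the looser matches.

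In the kinase step 2 IKK genes, IKBKB and IKBKG, fell and 3 genes of the TAK1 complex rose, while CHUK, IKBKE and MAP3K14 were not called. IKBKB, the catalytic kinase of the canonical IKK complex, stood at 54.1, 50.7 and 49.5 RPM in controls and at 40.4, 37.4 and 37.2 RPM in knockdowns. The groups were well apart, and the transcript fell to 74.5% of control (log2 fold change -0.42, adjusted p = 0.00017). IKBKG, or NEMO, the regulatory subunit that binds ubiquitin chains, stood at 27.6, 24.5 and 26.9 RPM in controls and at 18.2, 21.0 and 21.1 RPM in knockdowns. It fell to 76.2% of control without overlap (log2 fold change -0.39, adjusted p = 0.0018), and to a log2 fold change of -0.24 once trends with GC content and length were removed. IKBKG values are uncertain. A near-identical copy, IKBKGP1, was listed at 11.6 RPM in controls and 8.74 RPM in knockdowns, and reads of the pair may be split between them.

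CHUK, the IKK-alpha kinase, was at 37.3 ± 1.18 RPM in controls and 38.7 ± 0.797 RPM in knockdowns, with a log2 interval from -0.06 to 0.17. IKBKE, an IKK-related kinase of the interferon arm, had a log2 fold change of -0.04, and MAP3K14, or NIK, the kinase that starts the noncanonical arm, of 0.10, neither called. MAP3K14 shares 12.3% of its exon bases with an antisense RNA listed near 0.6 RPM, beside 6.12 RPM for the gene in controls.

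The genes of the set that rose here encode parts of the TAK1 complex, which phosphorylates IKK. TAB2, an adaptor that binds ubiquitin chains, stood at 88.8, 89.7 and 88.4 RPM in controls and at 110.3, 102.3 and 104.8 RPM in knockdowns. The knockdown libraries were all above the controls, and TAB2 rose by a log2 fold change of 0.25 (adjusted p = 0.0012), or 0.14 without the GC and length trends (adjusted p = 0.0079). Its relative TAB3 rose by 0.19 (adjusted p = 0.035) and the kinase MAP3K7, or TAK1, by 0.13 (adjusted p = 0.038), both without overlap. With the GC and length trends removed those values were 0.04 for TAB3 and 0.01 for MAP3K7 and neither was called (adjusted p = 0.60 and 0.82). Leaving out control library 1 or 3 or knockdown library 1 or 2 also ended the TAB3 call. Leaving out any library except knockdown 3 ended that of MAP3K7. Both calls also ended without an intensity trend in the variance model and with equal replicate numbers fitted as blocks. That of TAB3 ended after thinning to the smallest library, and that of MAP3K7 with no filter on low values. TAB1, the further subunit of the complex, was outside the set and was not called, at 30.2 and 29.7 RPM.

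Among the TRAF, IRAK and RIPK proteins, which carry the signal from the receptors, 5 of 9 fell and 1 rose. These shares of 55.6% lower and 11.1% higher stand beside 23.4% and 17.4% of all genes tested. TRAF1, an adaptor that pairs with TRAF2 and is itself an NF-kB target, lies at chr9:123664671-123691451 on the minus strand. It stood at 3.47, 4.13 and 3.64 RPM in controls and at 2.20, 2.22 and 2.03 RPM in knockdowns. Every knockdown library was below every control, and TRAF1 fell to 57.4% of control (log2 fold change -0.79 with an SE of 0.13, adjusted p = 0.00061). This rested on few reads, 118 to 183 in controls and 49 to 57 in knockdowns.

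IRAK1, the kinase that couples interleukin-1 and Toll-like receptors to TRAF6 (chrX:153275951-153285431, minus strand), was the most abundant of the 9 per exon length. It stood at 230.0, 219 and 245 RPM in controls and at 146, 165 and 164 RPM in knockdowns. The groups did not overlap, and IRAK1 fell to 68.5% of control (log2 fold change -0.55 with an SE of 0.06, adjusted p = 3.8e-05). RIPK2, the kinase of the NOD receptors, stood at 44.4, 45.8 and 49.9 RPM in controls and at 32.9, 34.0 and 32.5 RPM in knockdowns, lower in each knockdown library. It fell to 71.0% of control (log2 fold change -0.49, adjusted p = 6.8e-05).

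RIPK1, the kinase at the TNF receptor complex that can turn the signal to survival or death, fell to 85.6% of control (43.3 ± 0.424 to 37.0 ± 1.12 RPM, adjusted p = 0.0043). IRAK4, which activates IRAK1, fell to 86.7% of control (18.8 ± 0.359 to 16.3 ± 0.029 RPM, adjusted p = 0.018). The IRAK4 call was lost without control library 2 or 3 (adjusted p = 0.061 for each). It was also lost under quantile normalization and with equal replicate numbers fitted as blocks. TRAF6, the ubiquitin ligase downstream of the IRAK kinases, rose to 118% of control (12.7 ± 0.134 to 14.97 ± 0.787 RPM, adjusted p = 0.018). The TRAF6 call was lost without control library 3 or knockdown library 1 or 3 (adjusted p between 0.057 and 0.071) and with GC and length trends removed (log2 fold change 0.15, adjusted p = 0.090). TRAF2, TRAF3 and IRAK2 had log2 fold changes of 0.15, 0.11 and 0.15 and were not called. IRAK2 was called only without knockdown library 1, where its log2 fold change was 0.27 (adjusted p = 0.026). The libraries of TRAF3 did not overlap between groups, at 49.3 to 53.0 RPM in controls and 53.1 to 58.2 RPM in knockdowns, and TRAF3 was called under quantile normalization (adjusted p = 0.039).

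Of the 4 ubiquitin-editing inhibitors, which dismantle the signalling complexes, TNFAIP3 and CYLD rose and TNIP2 fell. TNFAIP3, or A20, the feedback inhibitor that edits ubiquitin chains on RIPK1 and NEMO, lies at chr6:138188351-138204449 on the plus strand and carries the paired kB matches printed above. It stood at 6.70, 5.26 and 5.11 RPM in controls and at 8.07, 8.71 and 8.44 RPM in knockdowns. Control library 1 was high among the controls yet below all knockdowns, and TNFAIP3 rose to 148% of control (log2 fold change 0.57 with an SE of 0.11, adjusted p = 0.0021). TNIP2, or ABIN-2, an A20-binding protein (chr4:2743375-2758103, minus strand), stood at 32.7, 28.6 and 29.6 RPM in controls and at 16.1, 18.7 and 18.9 RPM in knockdowns. TNIP2 fell without overlap to 58.9% of control (log2 fold change -0.76 with an SE of 0.08, adjusted p = 3e-05).

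TNIP1, or ABIN-1, another A20-binding protein, was not called, with a log2 interval from -0.15 to 0.07. CYLD, a deubiquitinase and tumour suppressor, rose to 115% of control (43.4 ± 1.06 to 49.8 ± 0.771 RPM, adjusted p = 0.0067). With GC and length trends removed the log2 fold change of CYLD was 0.05 and was not called (adjusted p = 0.47).

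**Figure D3:**
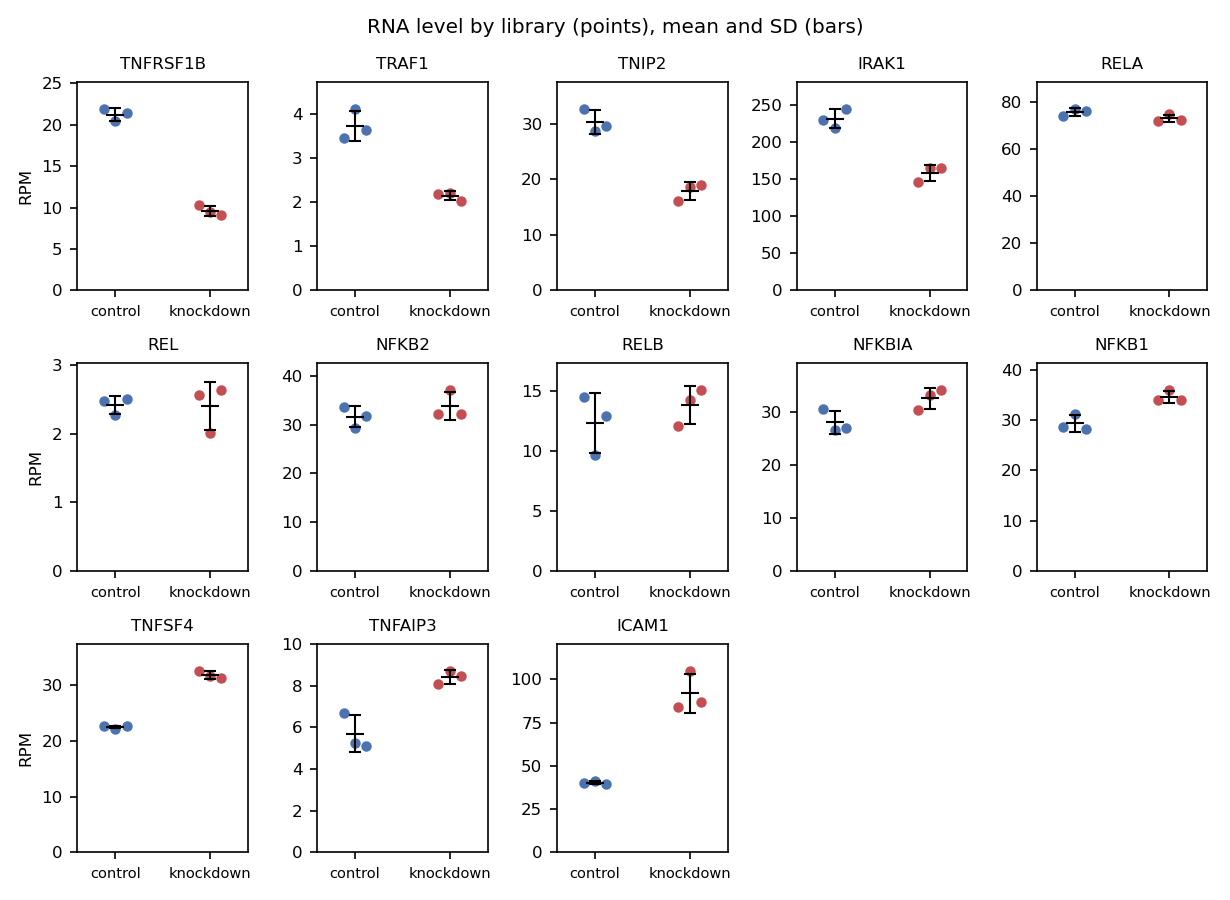
RNA level in RPM (y axes from 0, one panel per gene) in each control and knockdown library (points), with the group mean and SD (bars, n = 3), for the 13 genes given in full, ordered by fold change. The libraries of the first 4 and the last 4 panels do not overlap between groups, TNFRSF1B standing at 9.61 RPM in knockdowns and 21.2 RPM in controls, while those of RELA, REL, NFKB2, RELB and NFKBIA overlap.

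Of the 5 receptor genes 3 fell and none rose, and of the 2 receptors for TNF itself only TNFRSF1B was called. Lower were 60.0% of these 5, beside 23.4% of all genes tested. TNFRSF1B, or TNFR2, the receptor without a death domain that signals through TRAF2 and TRAF1, lies at chr1:12227060-12269285 on the plus strand. It stood at 21.9, 20.4 and 21.4 RPM in controls and at 10.3, 9.43 and 9.08 RPM in knockdowns. The groups were far apart, and TNFRSF1B fell to 45.2% of control (log2 fold change -1.14 with an SE of 0.07, adjusted p = 1.1e-06), rank 135 from the bottom of the 19188 genes tested. TNFRSF1A, or TNFR1, the death-domain receptor that most cells carry, stood at 170.3, 150 and 157 RPM in controls and at 156, 167 and 165 RPM in knockdowns, overlapping, with a log2 interval from -0.08 to 0.16. Per exon length TNFRSF1A was 7.03 ± 0.239 times TNFRSF1B in controls and 16.0 ± 1.57 times in knockdowns (SD, n = 3; exact permutation p = 0.1). The ratios ran from 6.89 to 7.30 and from 14.2 to 17.1, without overlap.

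The upstream window of TNFRSF1B holds no kB consensus and no annotated UTR in its last 120 bases, and it is shown because no gene of the set fell further.
TNFRSF1B, chr1:12166871-12166990, plus strand: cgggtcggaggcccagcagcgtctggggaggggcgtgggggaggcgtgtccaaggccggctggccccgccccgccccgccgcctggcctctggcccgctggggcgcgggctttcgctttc

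TNFRSF11B, or osteoprotegerin, the secreted decoy receptor for RANKL and TRAIL, stood at 127, 134 and 128 RPM in controls and at 99.4, 104 and 95.2 RPM in knockdowns. It fell without overlap to 76.6% of control (log2 fold change -0.38, adjusted p = 8.6e-05). TNFRSF21, or death receptor 6, fell to 85.1% of control (58.5 ± 2.89 to 49.8 ± 1.88 RPM, adjusted p = 0.0056). TNFRSF12A, the receptor for TWEAK and per exon length the most abundant gene of the set, was at 219 ± 6.89 RPM in controls and 202 ± 20.7 RPM in knockdowns (adjusted p = 0.16). Knockdown library 2 stood among the controls at 222 RPM, and without it the adjusted p was 0.025 at a log2 fold change of -0.20.

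Both ligands of the set rose, where 17.4% of all genes tested were higher. TNFSF4, or OX40L, which costimulates T cells, lies at chr1:173152873-173176452 on the minus strand. It stood at 22.6, 22.1 and 22.6 RPM in controls and at 32.5, 31.6 and 31.1 RPM in knockdowns. The libraries of each group were tight and far apart, and TNFSF4 rose to 142% of control (log2 fold change 0.50 with an SE of 0.05, adjusted p = 3.7e-05). TNFSF15, or TL1A, the ligand of death receptor 3, stood at 81.7, 90.2 and 85.1 RPM in controls and at 109.7, 121 and 96.1 RPM in knockdowns. It rose without overlap to 127% of control (adjusted p = 0.0042), by a log2 fold change of 0.34, or 0.23 with GC and length trends removed.

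Of the other induced genes ICAM1, the adhesion molecule that leukocyte integrins bind, rose most. ICAM1 (chr19:10381511-10397291, plus strand) stood at 39.8, 41.1 and 39.8 RPM in controls and at 84.0, 105 and 86.6 RPM in knockdowns. All 3 knockdown libraries were far above the controls, knockdown library 2 highest, and ICAM1 rose to 228% of control (log2 fold change 1.18 with an SE of 0.08, adjusted p = 1.1e-06), rank 207 from the top of all genes tested. Antisense RNAs that share 23.6% of its exon bases were listed at 0.040 and 0.109 RPM in controls and 0.081 and 0.208 RPM in knockdowns. VCAM1, the other adhesion molecule of the set, was at 10.5 ± 1.33 RPM in controls and 11.95 ± 1.14 RPM in knockdowns and was not called (log2 fold change 0.19, adjusted p = 0.18). Per exon length ICAM1 was 6.33 ± 0.937 times VCAM1 in controls and 12.7 ± 2.88 times in knockdowns (SD, n = 3; exact permutation p = 0.1), without overlap.

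TNFAIP2, a TNF-induced gene, rose to 128% of control (16.6 ± 1.02 to 21.4 ± 0.995 RPM, adjusted p = 0.0018). PTGS2, or cyclooxygenase 2, which makes prostaglandin precursors, stood at 6.52, 7.43 and 6.56 RPM in controls and at 5.29, 5.98 and 5.31 RPM in knockdowns. It fell without overlap to 80.8% of control (log2 fold change -0.30, adjusted p = 0.031). The call was lost without control library 2 or 3 or knockdown library 1 or 3 (adjusted p between 0.064 and 0.11). It was also lost under quantile normalization and after thinning to the smallest library. TNFAIP6, a hyaluronan-binding protein induced by TNF, and TNFAIP8 had log2 fold changes of 0.01 and 0.00, with intervals from -0.15 to 0.17 and from -0.15 to 0.15. CSF1, the macrophage growth factor, was at 26.7 ± 3.39 RPM in controls and 28.6 ± 0.943 RPM in knockdowns, and control library 1 was the highest of the 6 at 30.5 RPM. Without that library the log2 fold change of CSF1 was 0.21 (adjusted p = 0.023).

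Besides RELB, the removal of GC and length trends brought calls that the fit without it did not make. NFKB2 then had a log2 fold change of 0.21 (adjusted p = 0.0042), TRAF2 of 0.28 (adjusted p = 0.015), TNFRSF1A of 0.12 (adjusted p = 0.027) and CSF1 of 0.17 (adjusted p = 0.037).

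Further genes of the pathway outside the 46 were called in both directions. Of 4 further Rel-related and IkB-related genes, the nuclear repressor NKRF rose (log2 fold change 0.19, adjusted p = 0.047) and COMMD1, which promotes RELA turnover, fell (-0.30, adjusted p = 0.0025). BCL3 and NFKBID were not called. Of 46 further adaptors, ubiquitin enzymes and kinases 44 were tested, and 13 rose and 13 fell, 59.1% called beside 40.8% of all genes tested, at a median log2 fold change of 0.01. The 29.5% in each direction stand beside 17.4% higher and 23.4% lower of all genes. The largest rises were in MAP3K8, or TPL2, a kinase held by NFKB1 protein (1.90 to 4.06 RPM, log2 fold change 1.14), in CFLAR, which blocks caspase 8 (47.1 to 67.8 RPM, 0.52), and in the ubiquitin ligase PELI2 (10.7 to 15.04 RPM, 0.49). The largest falls were in the death-domain adaptor FADD (6.85 to 4.23 RPM, -0.66, adjusted p = 0.042 with overlapping groups), in the ubiquitin ligase PELI1 (14.0 to 9.15 RPM, -0.62) and in TBKBP1, a partner of TBK1 (12.3 to 8.44 RPM, -0.54).

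Of 40 further TNF ligands and receptors in the table only 20 passed the filter, and 9 of them rose and 5 fell, at a median log2 fold change of 0.25. Called were 70.0%, beside 40.8% of all genes tested, with 45.0% higher, beside 17.4%, and 5 of 20 lower, beside 23.4%. The largest rises were in the ligands TNFSF8 (0.167 to 0.473 RPM, log2 fold change 1.45) and TNFSF9 (0.419 to 0.924 RPM, 1.19) and in the receptor TNFRSF14 (1.401 to 2.50 RPM, 0.90). Both ligands rested on few reads. TNFSF8 had 5 to 8 reads in controls and 10 to 14 in knockdowns, and TNFSF9 had 10 to 22 and 15 to 29. TNFSF8 passed the filter on values scaled to the mean library size, not on its counted reads. The largest falls were in FASLG (1.31 to 0.583 RPM, -1.16), TNFSF13 (0.658 to 0.318 RPM, -1.02) and TNFSF12, the TWEAK ligand (6.12 to 4.91 RPM, -0.32, with overlapping groups). FASLG had 43 to 52 reads in controls and 11 to 16 in knockdowns, and TNFSF13 had 19 to 32 and 6 to 12. TNF itself was listed at 0.016 RPM in controls and 0.041 RPM in knockdowns, under the floor of 3 reads, and was not tested.

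Of 55 further textbook NF-kB targets 47 were tested, and 16 rose and 14 fell, at a median log2 fold change of 0.07. That is 34.0% higher and 29.8% lower, 63.8% in all, beside 17.4%, 23.4% and 40.8% of all genes tested. The largest rises were in the stress-response factor ATF3 (3.76 to 12.4 RPM, log2 fold change 1.72), the protease inhibitor SERPINE2 (192 to 579 RPM, 1.59) and TNFSF9. The largest falls were in BCL2A1, an inhibitor of apoptosis (6.89 to 2.41 RPM, -1.50), the granulocyte growth factor CSF3 (1.26 to 0.498 RPM, -1.37) and the chemokine CXCL3 (2.26 to 0.888 RPM, -1.35). BIRC3, BCL3, TNFSF9 and FAS stand on 2 of these lists.

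**Figure D4:**
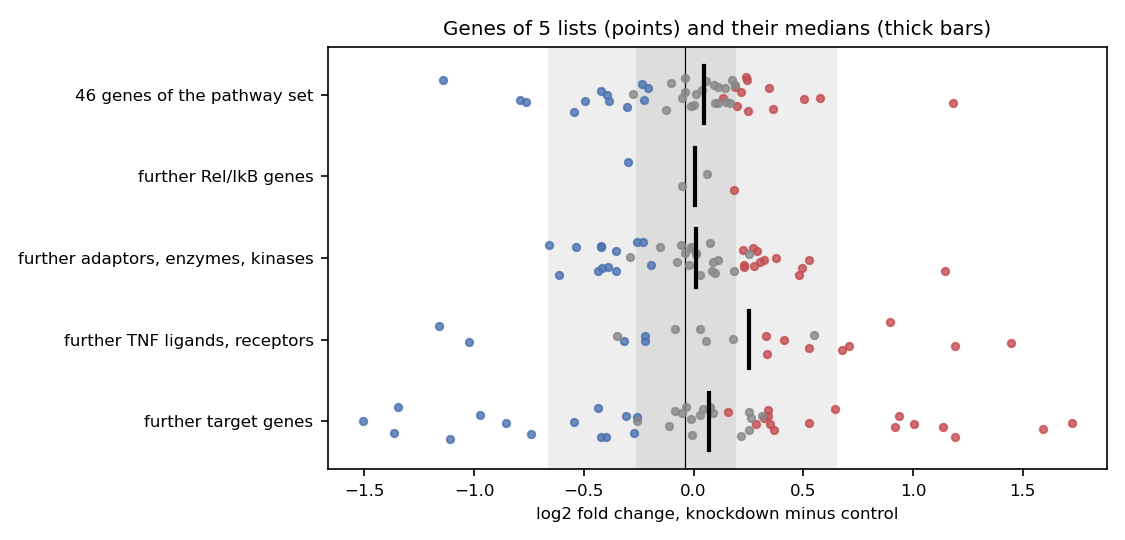
Log2 fold change (x axis, knockdown minus control) of every tested gene in the set of 46 and in 4 lists of further pathway genes (points; red called higher, blue called lower, grey not called), with list medians as thick bars. The shaded bands span the 25th to 75th and the 5th to 95th percentiles of all genes tested, from -0.26 to 0.19 and from -0.66 to 0.65, and all 5 lists hold calls in both directions.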

How the data were processed

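Per the labels' protocols, polyA RNA was read as single 50 bp reads on an Illumina HiSeq, and per the submitters' processing notes the tools were Bowtie2 and featureCounts and the build hg19; versions and the strand setting are not given in the sources used here. The authors deposited 1 table of log2 values per gene and library. From the values, these are log2 CPM, the reads plus 0.5 scaled by an effective library size, and undoing this gave whole reads (within 0.001) for 100% of values. The factors between library totals and effective sizes were 0.9885 to 1.0087.

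The deposited log2 values were tested with limma 3.58.1 (R 4.3.3; lmFit, eBayes with trend, group as the sole term, two-sided) for 19188 genes with a mean of at least 10 reads, and adjusted by Benjamini-Hochberg over all of them, with calls at an adjusted p under 0.05. Fold changes on this scale understate those of genes with few reads. The mean for the filter was computed from linear values scaled to the mean effective library size, so it can exceed the mean of the counted reads. On simulated data with 200 changed genes among 19188, 89.5% were recovered (98% at a log2 change of 1 and 81% at 0.5), and 5.29% of calls were false. The changed genes were drawn from those with a mean of at least 50 reads, so recovery of scarcer genes was not covered. They were far fewer than the genes called in the data, where both rates may differ. Single ratios and shares had an exact two-sided permutation test with a smallest p of 0.1. Exon lengths and overlaps came from GENCODE 29 (GRCh38), matched by ID for 44 genes and by symbol for 2 (IKBKE, IKBKG), with no coordinate moved between builds. Promoters were matched by symbol in the RefSeq table. The floor of 3 reads covers counting error only.

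The 46 genes and the lists were chosen with earlier results of these data known. Given in full were the called genes whose log2 fold change reached 0.5 in size without overlap between groups, the 5 Rel subunits and NFKBIA; from each other list, at most the 3 largest called rises and falls. Genes outside this rule were named after their values were seen. Protein sequences were not analysed here. One result is not reported here. The alternatives were other offsets, filters, scalings, variance models, thresholds, thinning, trend removal on GC and length, the replicate block, and leaving out each library.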

Additional observations from a re-analysis of the deposited data

How the results depend on the processing

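Over 19 alternative fits 17 of the 24 called genes kept their call in each, 7 lost it in at least 1 (CYLD, IRAK4, MAP3K7, NFKBIA, PTGS2, TAB3 and TRAF6), and 0 changed sign; of the 20 uncalled, 9 gained a call in at least 1 and 10 changed sign. Leaving out 1 library at a time gave 18 to 23 changed genes, fewest without control library 3, where 30.2% of all genes were called. An adjusted p under 0.01 left 18. Requiring a log2 fold change of 0.5 or more in size as well left 7, with 3 higher and 4 lower, fewer by construction. Thinning to the smallest library moved the median log2 fold change of the set from 0.0458 to 0.0909; the cause was not tested.

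Equal replicate numbers did not pair the libraries (correlations of deviations -0.139, -0.177 and 0.064). Under the replicate block, 20 genes of the set changed, 9 higher and 11 lower, and 6446 of all genes.

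None of these turned values was called. With GC and length trends removed, log2 fold changes turned to -0.0762 for CHUK, 0.0359 for IKBKE, 0.0203 for NFKBIE, 0.00149 for RELA, -0.0310 for TNFAIP6, -0.145 for TNFAIP8, 0.0697 for TNFRSF12A and 0.0492 for TNIP1. Quantile normalization gave 0.0126 for IKBKE and 0.0267 for REL. REL was also 0.0233 with an offset of 5 reads, 0.00693 with library totals and 0.110 after thinning, and TNFAIP8 was -0.00213 with voom and -0.0321 after thinning. Leaving out 1 library at a time gave -0.0840 to 0.110 for REL, -0.0442 to 0.0520 for TNFAIP6, -0.0228 to 0.0244 for TNFAIP8 and -0.00669 to 0.0875 for TNFRSF1A. The cause of these turns was not tested. Depth kept CSF2 and PTGES, at 1 to 16 and 5 to 15 reads, out of the test.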
